A study of Mus musculus with 8 samples.

Results

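Nuclear transport receptors carry proteins and RNA through nuclear pores, and 10 of them were followed in kidney RNA of diabetic mice given recombinant FGF4 (rFGF4, a modified growth factor with little mitogenic activity) or vehicle. They were the transportins Tnpo1, Tnpo2 and Tnpo3, importin beta 1 (Kpnb1), the importin alpha adaptors Kpna1, Kpna2, Kpna3 and Kpna4, importin 7 (Ipo7) and exportin 1 (Xpo1). All 10 were chosen by gene symbol from a table of 55401 genes, and all 10 were among the 15150 genes tested. The choice was made with the difference between rFGF4 and vehicle in view, so for these 10 genes that difference is given as a description, without a test.

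The rFGF4 group held mice 1, 2, 3 and 5 and the vehicle group mice 2, 3, 4 and 5, that is 4 mice per group. The sample labels name the 4 vehicle mice by the genotype db/db model and the other 4 by the treatment rFGF4, and the series description places both groups in the db/db background, whereas the text of the study describes the sequenced mice as diabetic after streptozotocin (STZ). Which diabetes model was sequenced cannot be settled from the expression table. By the same text the mice were male and the vehicle was phosphate-buffered saline, injected intraperitoneally, and the labels give no dose, age or duration. Kidney tissue was sequenced after poly(A) selection, so fewer cells of a type and less RNA per cell cannot be told apart. Expression is given as FPKM, in which fragments are divided by transcript length and by library size, so that levels of different genes are per length. Differences were calculated on the log2(FPKM + 1) scale as rFGF4 minus vehicle, which understates the change of low genes.

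These receptors, the karyopherins, bind cargo on one side of the pore and release it on the other under the control of the small GTPase Ran, which is held in its GTP form in the nucleus and in its GDP form in the cytoplasm. Importin alpha proteins read classical nuclear localization signals and are themselves carried by importin beta 1. Transportin 1 and its close relative transportin 2 carry hnRNP and other RNA-binding proteins directly, transportin 3 carries SR splicing factors, and importin 7 carries ribosomal proteins, histones and signaling proteins. Exportin 1 removes proteins with a leucine-rich export signal from the nucleus, among them FOXO factors. In the study, nuclear localization of FOXO1 in podocytes was one of the readouts.

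Promoter windows are shown for Tnpo1, which differed most between the groups, for Kpnb1, the most abundant receptor, and for Xpo1, which differed least with all mice. Each window runs 5′ to 3′ on the strand of the gene, from 250 bases before an annotated start to 50 bases after it, and comes from RefSeq on GRCm38.p6. Capitals mark the letters CCAAT, the NF-Y box, where either strand held them. Tnpo1 had 2 annotated starts, at chr13:98926335-98926634 (upstream) and chr13:98890993-98891292 (downstream), both on the minus strand. The Kpnb1 window lies at chr11:97187843-97188142 on the minus strand and the Xpo1 window at chr11:23255791-23256090 on the plus strand.
Tnpo1 upstream: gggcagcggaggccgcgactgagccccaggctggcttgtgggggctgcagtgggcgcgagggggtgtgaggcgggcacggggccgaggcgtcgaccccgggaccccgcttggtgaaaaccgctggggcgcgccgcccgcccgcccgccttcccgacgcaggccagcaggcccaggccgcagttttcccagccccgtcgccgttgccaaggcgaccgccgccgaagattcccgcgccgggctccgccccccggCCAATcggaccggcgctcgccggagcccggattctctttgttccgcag
Tnpo1 downstream: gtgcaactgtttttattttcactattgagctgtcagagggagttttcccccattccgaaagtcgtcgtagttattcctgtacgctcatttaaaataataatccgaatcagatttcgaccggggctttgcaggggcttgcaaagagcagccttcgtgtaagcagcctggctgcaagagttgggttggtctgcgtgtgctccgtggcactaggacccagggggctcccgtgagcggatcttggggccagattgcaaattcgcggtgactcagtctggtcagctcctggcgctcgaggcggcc
Kpnb1: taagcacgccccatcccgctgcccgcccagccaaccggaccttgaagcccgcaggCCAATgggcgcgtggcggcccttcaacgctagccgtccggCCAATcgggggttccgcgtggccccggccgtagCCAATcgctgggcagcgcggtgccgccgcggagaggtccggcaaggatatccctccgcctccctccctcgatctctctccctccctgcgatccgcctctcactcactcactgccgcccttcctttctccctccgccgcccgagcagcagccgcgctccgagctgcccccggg
Xpo1: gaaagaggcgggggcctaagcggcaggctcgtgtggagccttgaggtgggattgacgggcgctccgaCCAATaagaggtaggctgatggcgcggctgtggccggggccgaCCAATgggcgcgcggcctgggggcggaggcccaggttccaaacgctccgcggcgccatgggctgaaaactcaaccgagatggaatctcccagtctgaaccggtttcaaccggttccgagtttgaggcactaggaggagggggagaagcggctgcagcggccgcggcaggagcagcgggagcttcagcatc

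The upstream Tnpo1 window was 76.3% G and C with 41 CpG dinucleotides, and the downstream window was 54.0% G and C with 17, against medians of 52.7% and 7 over 32851 windows of the same length. Windows were found for 8 of the 10 receptors, 10 windows in all, and none was found for Kpna1 or Kpna3. CCAAT, or its reverse complement ATTGG, occurred in 6 of the 10 windows and in 37.4% of all windows. Counted in bases from the start, with minus for upstream, it stood at -195, -155 and -122 in Kpnb1, at -183 and -140 in Xpo1 and at 2 in the upstream window of Tnpo1, each on the strand of the gene. It was also present in Kpna2, Kpna4 and the upstream window of Tnpo2. The ETS letters CCGGAAG (or CTTCCGG) occurred in the Tnpo3 window and in 8.86% of all windows, and the cell cycle element TTTGAA (or TTCAAA) occurred in Ipo7, Kpna2 and Tnpo2 and in 17.9% of all windows. The FOXO letters TGTTTAC (or GTAAACA) occurred in 3.65% of all windows and in none of these 10. No match of one motif shared a base with a match of another. A match of letters is not a measured binding site.

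The libraries differed in composition, and 2 of them stood apart in ways that touch the results. Nephron genes were high throughout (proximal tubule markers summed to 243 to 1210 FPKM, podocyte markers to 46.0 to 90.5), while adipocyte markers summed to at most 0.186 FPKM although the extraction text of the labels speaks of adipose RNA. In vehicle mouse 5, B and plasma cell markers summed to 1520 FPKM, against at most 39.6 in the other vehicle mice, and macrophage markers to 277 against at most 56.6. In rFGF4 mouse 1 these sums were 171 and 246, and its proximal tubule sum was the lowest at 243. Red blood cell markers (Hba-a1, Hba-a2, Hbb-bs and Hbb-bt) had a larger log2 difference between the groups, in size, than Tnpo1, with sums of 120 to 2650 FPKM in rFGF4 mice and 1140 to 4310 in vehicle mice and a median log2 difference of -1.97 (-2.10 scaled). All 4 were below 0, none at an unadjusted p under 0.05 by limma with all mice. Without vehicle mouse 5 all 4 were under it, as were 986 of the 15150 tested genes, and none of the 4 had an adjusted p under 0.05. The share of FPKM in mitochondrial transcripts was 18.96% in rFGF4 mouse 1 and 24.42% in vehicle mouse 5 and lay between 24.73% and 38.35% in the other 6. Dividing each library by its median ratio over the tested genes (factors 0.9068 to 1.296, the largest in rFGF4 mouse 1 and the next, 1.107, in vehicle mouse 5) moved the median log2 difference of all tested genes from 0.09 to -0.01. Differences are therefore given as deposited and, as "scaled", after this division. The part of these shifts in the results was not tested.

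Among the transportins, Tnpo1 was high in all rFGF4 mice and low in 3 of the 4 vehicle mice. It is the main carrier of cargo with PY-type localization signals. Tnpo1 (ENSMUSG00000009470, chr13:98839019-98926384, minus strand, GRCm38) was at 9.92, 8.71, 7.14 and 6.91 FPKM in rFGF4 mice 1, 2, 3 and 5, and at 1.28, 0.85, 1.23 and 7.98 FPKM in vehicle mice 2, 3, 4 and 5. Vehicle mice 2, 3 and 4 lay below every rFGF4 mouse, and vehicle mouse 5 lay within the rFGF4 range, so the groups overlapped. Group means were 8.17 ± 1.41 and 2.84 ± 3.44 FPKM (SD, n = 4 each), a ratio of means of 2.88, and the log2 difference was 1.58 (SE 0.47). Without vehicle mouse 5 the vehicle mean was 1.12 ± 0.236 FPKM (n = 3) and the log2 difference was 2.11 (SE 0.17). After scaling, the values were 7.65, 8.13, 7.47 and 7.35 in rFGF4 mice and 1.41, 0.892, 1.36 and 7.21 in vehicle mice, so vehicle mouse 5 then lay just below the lowest rFGF4 mouse. The SD of log2(FPKM + 1) among vehicle mice was 1.05, at percentile 95.9 of all tested genes, and among rFGF4 mice it was 0.22, at percentile 34.8.

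**Figure D1:**
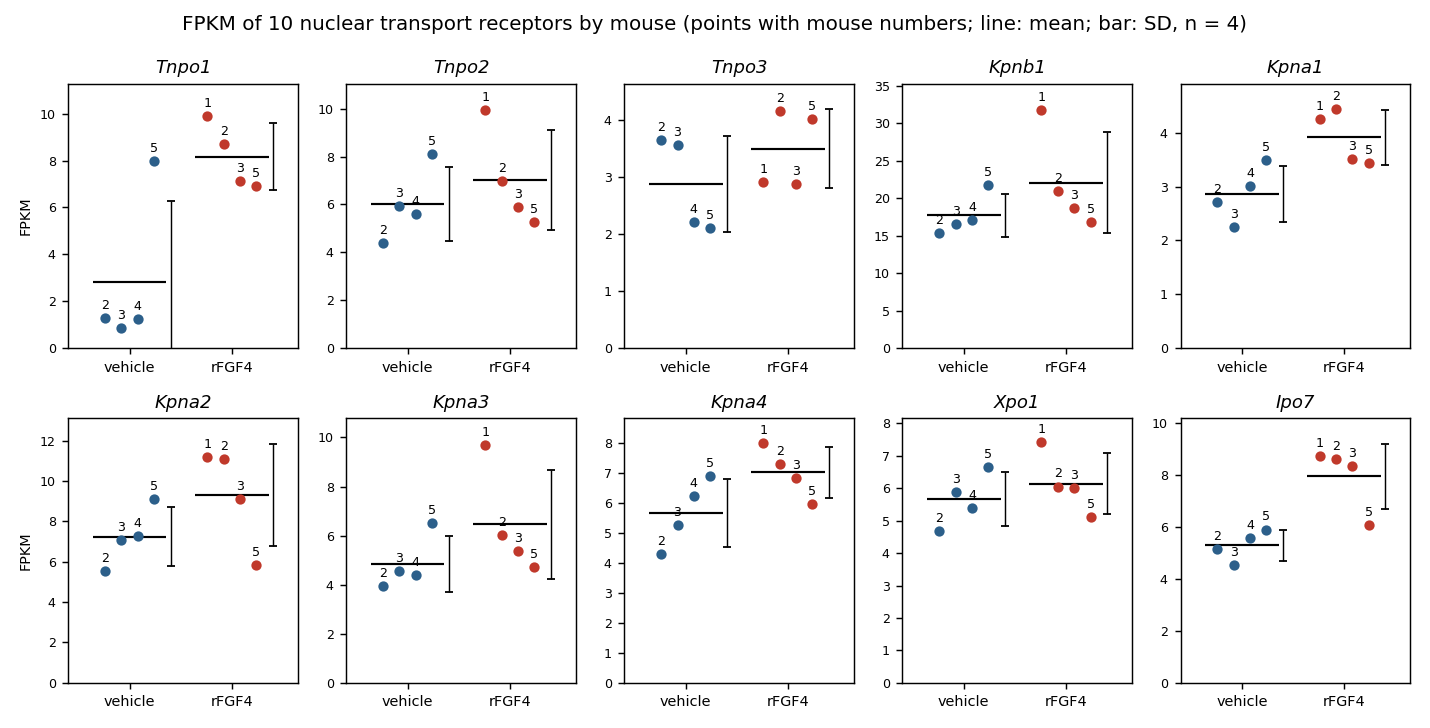
FPKM of the 10 transport receptors (vertical axes, each from 0) in 4 vehicle mice (blue) and 4 rFGF4 mice (red), with mouse numbers, group means (lines) and SD (bars, n = 4, cut at 0 for Tnpo1 in vehicle mice). Tnpo1 is at 0.85 to 1.28 FPKM in 3 vehicle mice and at 7.98 in vehicle mouse 5, and Ipo7 is the only panel in which the groups do not overlap.

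Of 3 expressed genes in or near Tnpo1, 1 (Fcho2) split the mice as Tnpo1 did in the deposited values, a split that was lost after scaling. GENCODE M21 lists 6 Tnpo1 transcripts, 4 of them protein coding, and the full-length pair of 8453 and 8445 exon bases starts at 98926384 and at 98891040, within the upstream and downstream windows printed above. The table holds a single value per gene, so transcripts from these starts could not be told apart. No exon of another gene overlapped a Tnpo1 exon. The neighbouring gene Fcho2, which encodes an endocytic adaptor, was at 5.61, 4.78, 4.45 and 4.26 FPKM in rFGF4 mice and at 4.22, 3.83, 4.04 and 4.77 FPKM in vehicle mice. Gm5453, a processed pseudogene on the opposite strand inside a Tnpo1 intron, was at 4.98, 3.43, 2.21 and 1.45 FPKM in rFGF4 mice and 1.12, 2.70, 4.42 and 2.50 FPKM in vehicle mice. Tmem171, a transmembrane protein gene beyond Fcho2, was at 17.9, 8.84, 4.54 and 4.61 FPKM in rFGF4 mice and 7.8, 8.21, 4.96 and 11.1 FPKM in vehicle mice. Fcho2 was lower in vehicle mice 2, 3 and 4 than in the other 5 mice, the same split as Tnpo1 over a much smaller range, and Gm5453 and Tmem171 were not. The split rested on 4.22 FPKM in vehicle mouse 2 against 4.26 in rFGF4 mouse 5. The share of all genes with such a split is not given here. After scaling, Fcho2 ran from 4.33 to 4.65 FPKM in rFGF4 mice and from 4.02 to 4.64 in vehicle mice, with vehicle mouse 2 the highest of the latter.

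Tnpo2, the paralog of Tnpo1, overlapped between the groups. Tnpo2 (ENSMUSG00000031691, chr8:85036915-85057583, plus strand) was at 9.95, 6.99, 5.89 and 5.26 FPKM in rFGF4 mice 1, 2, 3 and 5 and at 4.38, 5.95, 5.6 and 8.1 FPKM in vehicle mice 2, 3, 4 and 5. Its highest value was in rFGF4 mouse 1 and its second highest in vehicle mouse 5. Means were 7.02 ± 2.08 and 6.01 ± 1.55 FPKM (SD, n = 4), with a log2 difference of 0.19 (SE 0.22) and 0.07 after scaling. The difference was 0.03 without rFGF4 mouse 1 and 0.32 without vehicle mouse 5. The ratio of Tnpo1 to Tnpo2 within a mouse, in which a factor common to a library cancels, was 0.997, 1.24, 1.21 and 1.31 in rFGF4 mice and 0.293, 0.143, 0.22 and 0.985 in vehicle mice. By this ratio, too, vehicle mouse 5 was close to the rFGF4 mice and the other vehicle mice were not.

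Tnpo3, the carrier of SR splicing factors, had no common order with the other transportins. Tnpo3 (ENSMUSG00000012535, chr6:29540827-29609887, minus strand) was at 2.91, 4.16, 2.88 and 4.02 FPKM in rFGF4 mice and at 3.64, 3.56, 2.21 and 2.10 FPKM in vehicle mice. The groups overlapped, and vehicle mouse 5, high for most receptors, had the lowest Tnpo3 value of all 8 mice. Means were 3.49 ± 0.691 and 2.88 ± 0.835 FPKM (SD, n = 4) and the log2 difference was 0.23 (SE 0.19), or 0.13 scaled. Values of 2 transportins may hold reads of other genes, since 666 exon bases of Tnpo2 (10.6%) are shared with the opposite-strand transcript A230103J11Rik and 411 of Tnpo3 (3.14%) with Irf5, and strand-specific counting is not stated.

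Importin beta 1, the carrier that brings importin alpha and its cargo through the pore, was the most abundant of the 10. Kpnb1 (ENSMUSG00000001440, chr11:97159714-97187881, minus strand) was at 31.8, 21, 18.7 and 16.8 FPKM in rFGF4 mice and at 15.3, 16.6, 17.1 and 21.8 FPKM in vehicle mice. Only rFGF4 mouse 1 lay above all vehicle mice. Means were 22.1 ± 6.69 and 17.7 ± 2.87 FPKM (SD, n = 4), and the log2 difference of 0.28 (SE 0.21) was 0.15 after scaling. Without rFGF4 mouse 1 the difference was 0.09, and without vehicle mouse 5 it was 0.38. Of the Kpnb1 exon bases, 7.07% are shared with the antisense gene Gm11583, which was at or below 0.232 FPKM in every library.

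The importin alpha adaptors, which pick the cargo, all had higher means in rFGF4 mice and all overlapped between groups. Kpna1 (importin alpha 5; ENSMUSG00000022905, chr16:35978750-36037131, plus strand) was at 4.26, 4.44, 3.52 and 3.44 FPKM in rFGF4 mice and 2.72, 2.25, 3.02 and 3.49 FPKM in vehicle mice. For Kpna1 the groups met only where rFGF4 mouse 5 fell just below vehicle mouse 5. Means were 3.91 ± 0.507 and 2.87 ± 0.522 FPKM (SD, n = 4) and the log2 difference was 0.35 (SE 0.14), or 0.25 scaled.

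Kpna2 (importin alpha 1, abundant in proliferating cells; ENSMUSG00000018362, chr11:106988629-106999541, minus strand) was at 11.2, 11.1, 9.10 and 5.84 FPKM in rFGF4 mice and 5.54, 7.06, 7.29 and 9.11 FPKM in vehicle mice. Here rFGF4 mouse 5 lay with the lower vehicle mice, and the log2 difference was 0.30 (SE 0.22), or 0.18 scaled. Markers of proliferating cells, Mki67, Top2a, Ccnb1, Ccnb2 and Cdk1, summed to 1.87 to 8.33 FPKM in rFGF4 mice and 1.36 to 6.56 FPKM in vehicle mice, with the highest sums in rFGF4 mouse 1 and vehicle mouse 5. Their part in the Kpna2 values was not tested.

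Kpna3 and Kpna4 are importin alpha 4 and importin alpha 3, close relatives whose cargoes include NF-kB. Kpna3 (ENSMUSG00000021929, chr14:61365211-61439874, minus strand) was at 9.68, 6.03, 5.39 and 4.73 FPKM in rFGF4 mice and 3.95, 4.55, 4.38 and 6.52 FPKM in vehicle mice, a log2 difference of 0.33 (SE 0.22), or 0.22 scaled. The Kpna3 difference was 0.14 without rFGF4 mouse 1 and 0.45 without vehicle mouse 5. Kpna4 (ENSMUSG00000027782, chr3:69067149-69127113, minus strand) was at 7.97, 7.30, 6.82 and 5.94 FPKM in rFGF4 mice and 4.30, 5.24, 6.21 and 6.89 FPKM in vehicle mice, a log2 difference of 0.28 (SE 0.16), or 0.16 scaled. In both genes the highest vehicle value came from mouse 5 and the highest rFGF4 value from mouse 1.

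Ipo7, the importin 7 gene, was the only receptor whose groups did not overlap in the deposited values. Ipo7 (ENSMUSG00000066232, chr7:110018274-110056609, plus strand) was at 8.73, 8.58, 8.33 and 6.08 FPKM in rFGF4 mice and at 5.14, 4.53, 5.58 and 5.89 FPKM in vehicle mice. The lowest rFGF4 value, in mouse 5, stood well below the other 3 and just above the highest vehicle value. Means were 7.93 ± 1.25 and 5.29 ± 0.59 FPKM (SD, n = 4), a ratio of means of 1.5, and the log2 difference was 0.50 (SE 0.14), or 0.39 after scaling, when the groups again did not overlap. Over all tested genes, 2.66% had every rFGF4 mouse above every vehicle mouse, and 0.667% every rFGF4 mouse below.

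Xpo1, the exporter of FOXO proteins and many kinases, differed least with all mice, while without vehicle mouse 5 Tnpo3 did (0.13 against 0.17 for Xpo1). Xpo1 (ENSMUSG00000020290, chr11:23256041-23298249, plus strand) was at 7.41, 6.05, 5.99 and 5.12 FPKM in rFGF4 mice and at 4.69, 5.88, 5.40 and 6.66 FPKM in vehicle mice. Means were 6.14 ± 0.947 and 5.66 ± 0.827 FPKM (SD, n = 4), and the log2 difference of 0.10 (SE 0.14) was -0.01 (SE 0.09) after scaling, the only scaled value of the 10 below 0. After scaling, its highest value was 1.21 times its lowest over all 8 mice, against 9.11 times for Tnpo1.

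**Figure D2:**
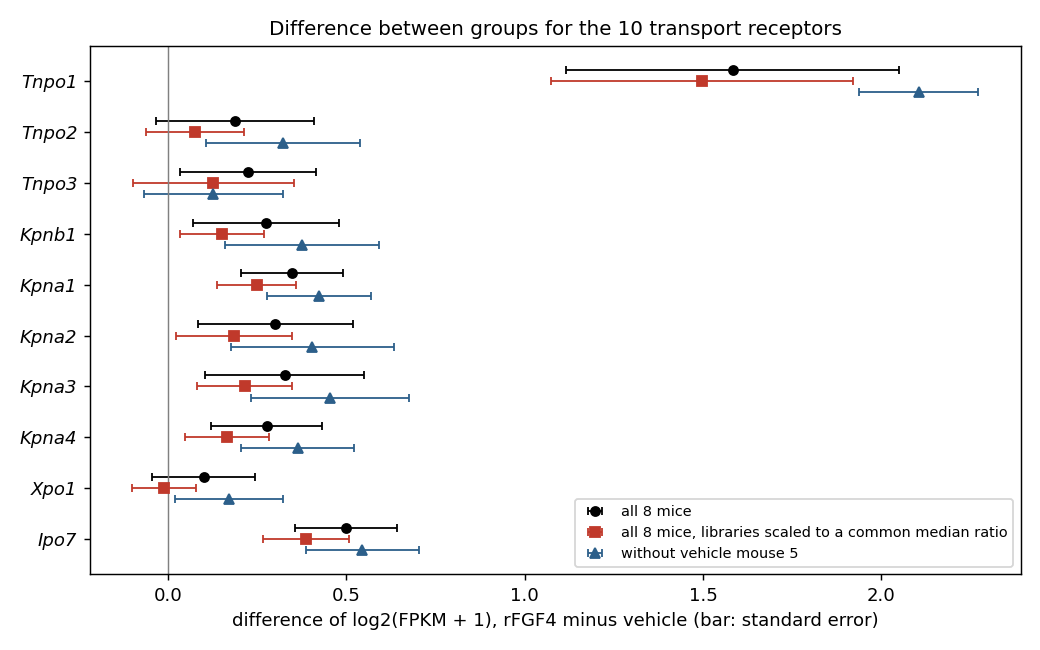
Difference of log2(FPKM + 1), rFGF4 minus vehicle (horizontal axis), for the 10 transport receptors, with SE as bars: all 8 mice as deposited (black circles), all 8 mice after median ratio scaling (red squares), and without vehicle mouse 5 (blue triangles). Tnpo1 lies at 1.58, 1.5 and 2.11, and the other 9 lie between -0.01 and 0.54 in all 3. The values without rFGF4 mouse 1 are not drawn, and their median over the 10 was 0.21, against 0.39 without vehicle mouse 5.

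Counted over the 10 receptors, 1 (Tnpo1) passed the threshold of an unadjusted p under 0.05 with a fold of at least 1.5 in the limma fit across all genes, where 1.09% of tested genes did so in the same direction, or 0.614% after scaling, when Tnpo1 again passed. At an unadjusted p under 0.05 alone there were 3, Tnpo1, Kpna1 and Ipo7, beside 3.56% of tested genes, and after scaling 2, Tnpo1 and Ipo7, beside 2.24%. All 10 differences were above 0, as were 67.1% of all tested genes and 73.6% of the 6661 genes with a mean FPKM in the range of the receptors. After scaling these counts were 9 of 10 and 47.6%. The median log2 difference was 0.29 over the 10 receptors and 0.09 over all tested genes, or 0.17 and -0.01 scaled. These counts describe the choice of the genes, and nothing is read from them. No tested gene reached an adjusted p under 0.05 (limma, smallest 0.918), and 700 were at an unadjusted p under 0.05. The number of genes at an adjusted p under 0.05 was 1 without vehicle mouse 2 (Ntn1), without vehicle mouse 4 (Rbm33) and with no filter (Gm24135), genes named here after their values were seen. It was also 1 without vehicle mouse 5, where the gene was Tnpo1, but Tnpo1 was chosen by this difference and mouse 5 is the vehicle mouse that goes against it, so that count is no test of Tnpo1.

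By mouse, rFGF4 mouse 1 held the highest value for 8 of the 10 receptors, where it held the highest value for 48.1% of all tested genes, and rFGF4 mouse 2 held the highest for Tnpo3 and Kpna1. Vehicle mouse 2 held the lowest for 6 of 10 and for 20.2% of tested genes, vehicle mouse 3 for Tnpo1, Kpna1 and Ipo7, and vehicle mouse 5 for Tnpo3. The FPKM of the 10 genes summed to 104, 84.3, 73.8 and 64.1 in rFGF4 mice 1, 2, 3 and 5 and to 50.9, 56.4, 58.0 and 78.6 in vehicle mice 2, 3, 4 and 5. The scaled sums were 80.1, 78.8, 77.2 and 68.3 in rFGF4 mice and 56.0, 59.2, 64.0 and 71.0 in vehicle mice. On both scales the sum in vehicle mouse 5 exceeded that in rFGF4 mouse 5, so the groups overlapped.

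The order of levels, which the choice of genes did not use, was led by Kpnb1. Mean FPKM over all 8 mice was 19.9 for Kpnb1, 8.28 for Kpna2, 6.61 for Ipo7, 6.51 for Tnpo2, 6.33 for Kpna4, 5.90 for Xpo1, 5.66 for Kpna3, 5.50 for Tnpo1, 3.39 for Kpna1 and 3.19 for Tnpo3. Kpnb1 exceeded Kpna2 in 8 of 8 mice by 1.27 ± 0.22 on the log2 scale (SD, exact two-sided sign-flip permutation test, p = 0.00781, the smallest it can give, adjusted p = 0.0703 over 9 neighbouring pairs). Kpna2 exceeded Ipo7 in 7 of 8 mice by 0.32 ± 0.25 (exact p = 0.0156, adjusted p = 0.0703). From Ipo7 down, neighbours did not differ beyond their spread (7 pairs, adjusted p 0.445 to 0.844 by the same exact test). Tnpo1 ranked 3 of the 10 by its mean in rFGF4 mice and 10 in vehicle mice, and Kpnb1 and Kpna2 were at the top in both groups. The middle of the order differed between the groups, with Ipo7 at rank 4 in rFGF4 mice and 6 in vehicle mice, Tnpo2 at 5 and 3, Kpna4 at 6 and 4, and Xpo1 at 8 and 4 (level with Kpna4 in vehicle mice).

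Within groups, most of the receptors rose and fell together from mouse to mouse, apart from Tnpo3. To ask this without the treatment difference, each group mean was subtracted from log2(FPKM + 1) and each of the 45 pairs was correlated over the 8 mice, with an exact permutation of mice within groups (two-sided, 576 arrangements, smallest p 0.00174). The median Pearson r was 0.665, against 0.22 over pairs of all tested genes, and 0.283 against 0 after scaling. Much of this was shared with genes in general, since the median r of each receptor other than Tnpo3 with all tested genes was 0.339 to 0.616. The tested genes include lower levels than those of the receptors, and r for a set of matched level is not given here. With p-values adjusted over the 45 pairs, 11 pairs passed 0.05, all with a positive r, and 18 passed by Spearman's rho. After scaling, 3 pairs passed.

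The closest pair was Kpnb1 with Kpna3, a carrier and an adaptor of the same import complex, with r = 0.99 and rho = 0.98 (exact permutation p = 0.00347 and 0.00694, adjusted p = 0.026 and 0.0347, n = 8). Without the 2 mice farthest from the median it was 0.97, and after scaling 0.96 (exact permutation, adjusted p = 0.026). Tnpo2 followed Kpna3 (r = 0.97, rho = 0.98, exact permutation p = 0.00174 and 0.00347, adjusted p = 0.0195 and 0.026), with r = 0.92 without the 2 farthest mice and 0.91 after scaling, where the adjusted p by the exact permutation test was 0.0625. Tnpo2 also followed Xpo1 (r = 0.97, rho = 0.95, exact permutation p = 0.00174 for each, adjusted p = 0.0195 and 0.026), with r = 0.91 without the 2 farthest mice but 0.58 after scaling. Kpnb1 with Xpo1 had r = 0.91 and rho = 0.86 (exact permutation p = 0.00521 and 0.0139, adjusted p = 0.0335 and 0.0368), with 0.74 without the 2 farthest mice and 0.29 after scaling.

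The adaptor pair Kpna2 and Kpna4 had r = 0.86 and rho = 0.95 (exact permutation p = 0.00174 and 0.00347, adjusted p = 0.0195 and 0.026), with 0.75 without the 2 farthest mice and 0.64 scaled. Kpna1 with Ipo7 had r = 0.78 and rho = 0.88 (exact permutation p = 0.00694 and 0.0104, adjusted p = 0.0391 and 0.0368), with 0.71 without the 2 farthest mice and 0.67 scaled. By Pearson's r, Tnpo1 passed with Kpnb1 only (r = 0.61, rho = 0.60, exact permutation p = 0.0104 and 0.0556, adjusted p = 0.0469 and 0.0962), and r was 0.37 after scaling. By Spearman's rho it passed with Ipo7 (rho = 0.83, exact permutation p = 0.00868, adjusted p = 0.0368) and not with Kpnb1, while r with Ipo7 was 0.51, 0.36 without the 2 farthest mice and 0.01 after scaling. The other 4 pairs that passed by r were Kpna3 with Xpo1, Tnpo2 with Kpnb1 and Kpna4 with each of Tnpo2 and Kpnb1.

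Tnpo3 had a negative r with all 9 other receptors, from -0.78 to -0.52 with a median of -0.56, whereas its median r with all tested genes was -0.25. Without the 2 farthest mice the 9 values ran from -0.62 to -0.10, the weakest with Tnpo1 and with Tnpo2 (-0.12). In those 2 pairs the mice left out were chosen by Tnpo1 or Tnpo2, and in the other pairs by Tnpo3. The 9 values thus do not share one choice of mice, and nothing is concluded from them. None of the 9 passed adjustment as deposited. After scaling, its r was -0.88 with Kpnb1 and -0.88 with Kpna3 (exact permutation, adjusted p = 0.026 for each), and these with Kpnb1 and Kpna3 were the 3 pairs that passed. Tnpo3 also shares exon bases with Irf5, a macrophage and B cell factor whose FPKM ran from 2.08 to 6.05 in rFGF4 mice and from 2.0 to 7.65 in vehicle mice, and the part of Irf5 reads in the Tnpo3 values was not tested. The 8 mice, 2 of which stood apart in composition, limit what these correlations can show: without any rFGF4 mouse or without vehicle mouse 5, no pair passed, and 7 to 9 did without vehicle mouse 2, 3 or 4.

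**Figure D3:**
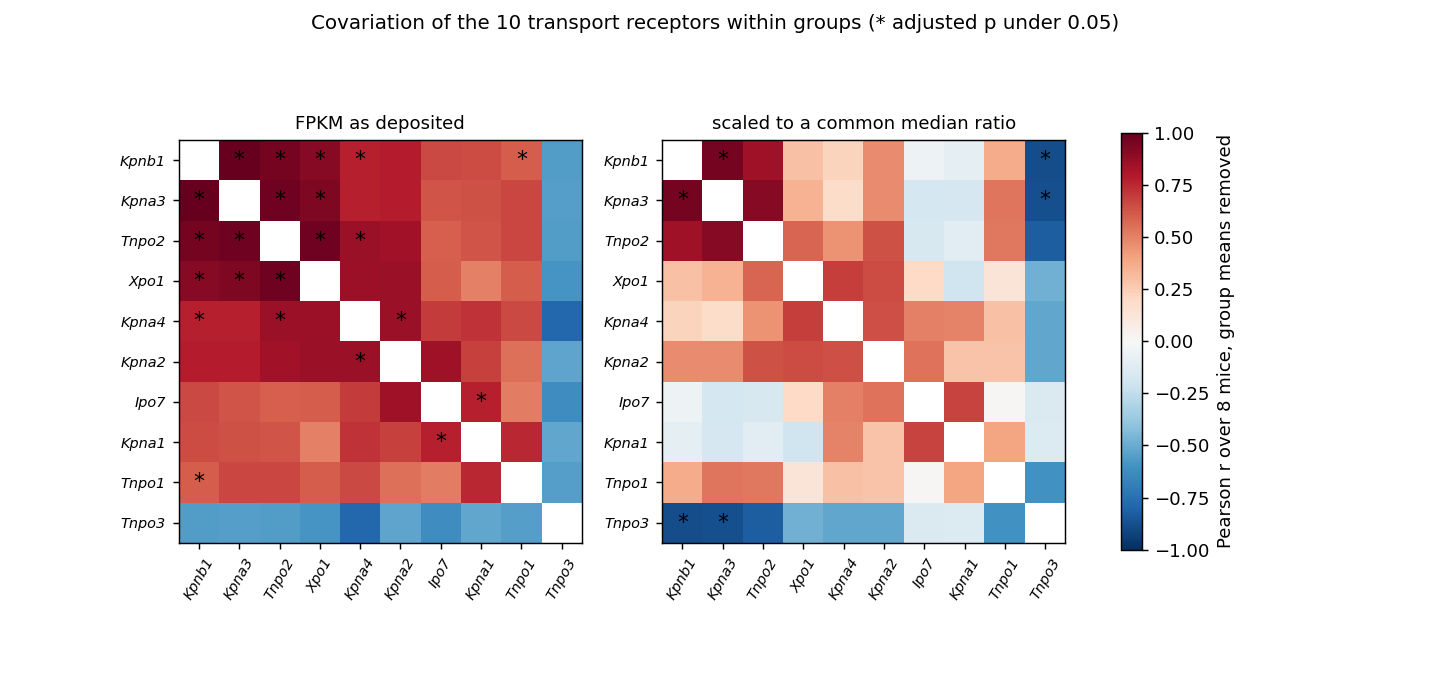
Pearson r (color, -1 to 1) of each pair of the 10 transport receptors over 8 mice after removal of group means, for FPKM as deposited (left) and after median ratio scaling (right), with stars for an adjusted p under 0.05 by exact permutation. The left panel has 11 starred pairs, all positive, and a negative row for Tnpo3, and the right panel has 3, of which Tnpo3 with Kpnb1 and with Kpna3 are negative.

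The genes most like Tnpo1 among mice of a group were Tcf21, Ighv14-4, Igkv4-80 and Setd6, 4 of the 5 with the highest r over the 8 mice after removal of group means among genes with a mean of at least 5 FPKM. Tcf21, a transcription factor of podocytes and interstitial fibroblasts, had r = 0.99 (rho = 0.98, and 0.97 without the 2 farthest mice). As for the pairs, group means kept all mice, so 0.97 does not free r of vehicle mouse 5. Tcf21 was at 23.8 FPKM in vehicle mouse 5, 3.95 to 4.88 in the other vehicle mice and 5.45 to 9.94 in rFGF4 mice, a log2 difference between groups of -0.01. The immunoglobulin segments Ighv14-4 (r = 0.98) and Igkv4-80 (r = 0.97) reached 60.9 and 118 FPKM in vehicle mouse 5 and at most 4.55 and 1.51 FPKM elsewhere. These segments reached a mean of 5 FPKM only through vehicle mouse 5, the mouse that also sets the deviation of Tnpo1, so their r was fixed by that library. Setd6, a lysine methyltransferase (r = 0.97, or 0.80 without the 2 farthest mice), reached 8.13 FPKM there and at most 6.14 elsewhere. All 4 had their highest value in vehicle mouse 5, in which Tnpo1 was at 7.98 FPKM, and their high values there were not matched by high values in the rFGF4 mice, where Tnpo1 was at 6.91 to 9.92 FPKM.

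The genes most like Kpnb1 by the same measure were Pias4 (a SUMO ligase, r = 0.996), Ddx52 (an RNA helicase, 0.995), Serbp1 (an mRNA-binding protein, 0.994), Pafah1b2 (0.992) and Mllt1 (a subunit of elongation complexes, 0.992). Their FPKM ran from 4.44 to 6.99 in rFGF4 mice and 4.53 to 6.12 in vehicle mice for Pias4, and from 9.23 to 17.2 and from 8.03 to 11.8 for Ddx52.

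Outside the 10, genes of nuclear transport were taken from 7 lists of 73 genes, of which 70 could be tested (Ranbp17 and Kpna7 were below the filter, and Nup58 was not matched). By limma, 1 (Nutf2) passed the threshold upward and none downward, 3 (Nutf2, Rangap1 and Gle1) were at an unadjusted p under 0.05, and none had an adjusted p under 0.05 (smallest 0.918). Over all tested genes, 1.09% passed the threshold upward and 3.56% were at an unadjusted p under 0.05 upward. Differences were above 0 for 64 of the 70 and after scaling for 46, beside 67.1% and 47.6% of all tested genes, and the median log2 difference was 0.16, or 0.05 scaled, beside 0.09 and -0.01. The counts of each list below are to be read against these shares.

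In the Ran cycle, Nutf2, the carrier that returns Ran to the nucleus, was at 21.9, 16.6, 16.8 and 12.4 FPKM in rFGF4 mice 1, 2, 3 and 5 and at 15.8, 6.22, 4.92 and 7.32 FPKM in vehicle mice 2, 3, 4 and 5. Vehicle mouse 2 lay within the rFGF4 range and the other 3 lay below it. Means were 16.9 ± 3.90 and 8.56 ± 4.91 FPKM (SD, n = 4), with a log2 difference of 1.0 (SE 0.32, limma unadjusted p = 0.0136, adjusted p = 0.918). Rangap1, the GTPase activator of Ran at the cytoplasmic face of the pore, fell outside the rule for named genes and was singled out after its values were seen. It was at 16.2, 14.3, 15.5 and 9.92 FPKM in rFGF4 mice and at 8.38, 9.35, 8.95 and 11 FPKM in vehicle mice, a log2 difference of 0.51 (SE 0.17, limma unadjusted p = 0.0152, adjusted p = 0.918), and only rFGF4 mouse 5 lay within the vehicle range. Of the 9 genes of this list, 7 had a difference above 0 (median 0.16), and 6 after scaling (0.06), when Nutf2 was at 0.88 and Rangap1 at 0.39.

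The other receptors of the importin beta family gave no call. All 13 tested had a difference above 0 as deposited and 10 after scaling, with a median of 0.18 (0.07 scaled). Ipo4, an importer of histones and ribosomal proteins, was at 11.2 ± 3.48 and 7.88 ± 1.55 FPKM (SD, n = 4, log2 difference 0.43, limma unadjusted p = 0.0898, adjusted p = 0.918), and Xpo7 was at 3.06 ± 0.466 and 2.35 ± 0.403 FPKM (0.28, limma unadjusted p = 0.0917, adjusted p = 0.918). Kpna6, the remaining importin alpha that could be tested, was at 12 ± 0.811 and 10.5 ± 0.958 FPKM (0.18, limma unadjusted p = 0.132, adjusted p = 0.918). After scaling, the differences were 0.31 for Ipo4, 0.18 for Xpo7 and 0.06 for Kpna6.

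No pore or mRNA export gene passed the threshold. Of 18 scaffold and membrane nucleoporins, 17 had a difference above 0 (median 0.11) and 10 after scaling (median 0.01), the smallest p belonging to Ndc1 (log2 difference 0.43, SE 0.22) and Nup188 (0.31, SE 0.18). All 10 channel, basket and cytoplasmic nucleoporins were above 0 (median 0.18), and 8 after scaling (0.07). Among them were Gle1, an mRNA export factor (0.28, limma unadjusted p = 0.0428, adjusted p = 0.918), and Nup50, a basket protein that aids cargo release from importin alpha (0.31, SE 0.15). For Gle1 every rFGF4 mouse (5.83 to 7.06 FPKM) lay above every vehicle mouse (4.53 to 5.62 FPKM), but after scaling the groups overlapped (5.44 to 7.08 and 4.75 to 6.19) and the difference was 0.17, with a limma unadjusted p of 0.19, no longer under 0.05. Of 9 bulk mRNA export genes, 8 were above 0 (median 0.19) and 7 after scaling (0.07), with the helicases Ddx19a at 0.32 (SE 0.14) and Ddx19b at 0.21 (SE 0.12), and for Ddx19b the groups did not overlap as deposited but did after scaling (2.78 to 3.09 and 2.32 to 3.04). As deposited these were 2 of the 70 genes, beside 2.66% of all tested genes. Apart from Gle1, these named genes had a limma unadjusted p between 0.0506 and 0.116 and an adjusted p of 0.918. After scaling, the differences were 0.34 for Ndc1, 0.21 for Nup188, 0.19 for Nup50, 0.20 for Ddx19a and 0.12 for Ddx19b.

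Cargoes of the transportins gave no call. Of 10 tested, 8 had a difference above 0 as deposited (median 0.10) and 4 after scaling (median -0.03). Hnrnpa1, the classic cargo of transportin 1, was at 53.2 ± 18.6 and 39.9 ± 10.2 FPKM (SD, n = 4, log2 difference 0.38, limma unadjusted p = 0.167, adjusted p = 0.918), and Hnrnpa2b1 at 70.2 ± 4.90 and 62.8 ± 4.40 FPKM (0.16, limma unadjusted p = 0.178, adjusted p = 0.919). After scaling these differences were 0.25 and 0.03. RNA levels give no measure of where these proteins were in the cell.

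**Figure D4:**
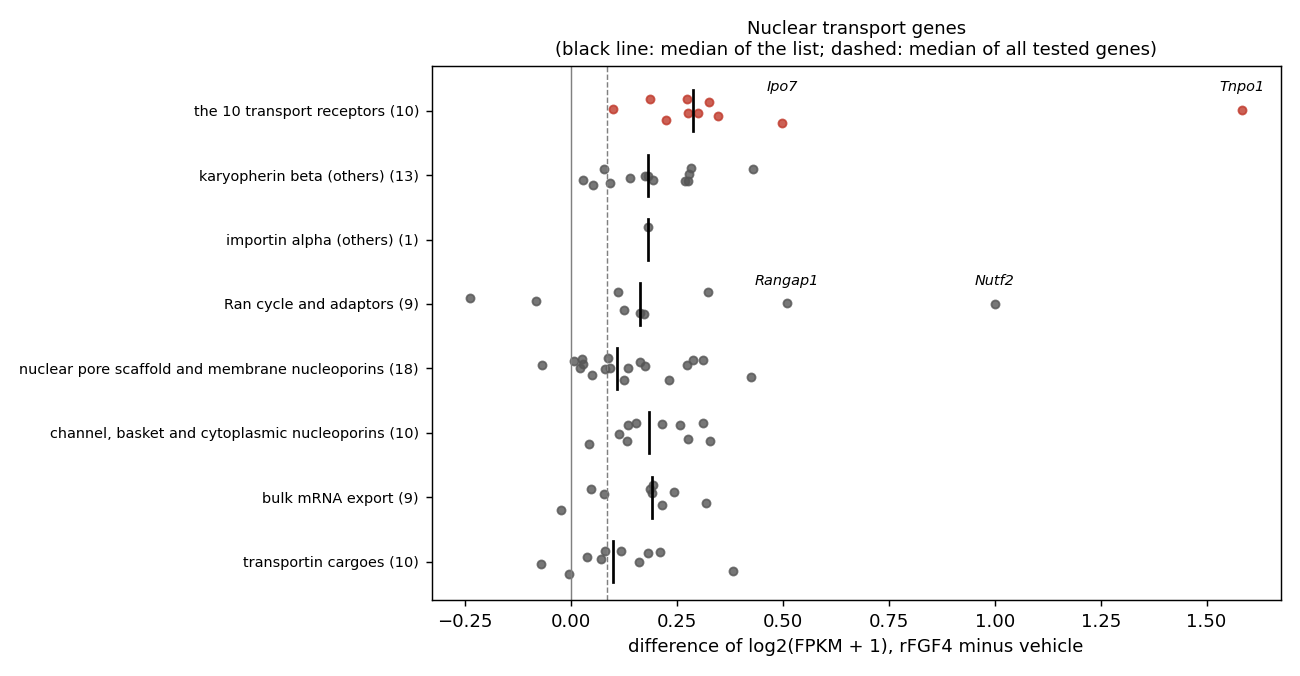
Difference of log2(FPKM + 1), rFGF4 minus vehicle (horizontal axis), of each gene (points, spread vertically for visibility) in the 10 transport receptors (red) and 7 lists of other nuclear transport genes (grey), with numbers of genes tested in brackets, list medians as black lines and the median of all tested genes (0.09) as a dashed line. Tnpo1 at 1.58 and Nutf2 at 1.0 lie farthest right, and list medians run from 0.10 to 0.29.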

How the data were processed

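Kidney poly(A) RNA of 8 mice (4 rFGF4, 4 vehicle) was sequenced by the authors, who deposited FPKM per gene. The submitters' processing notes name HISAT2 2.0, StringTie 1.3.0, Bowtie 0.12.2 and the build mm8, without roles, while 55141 of 55401 gene identifiers (99.5%) are in GENCODE M21 (GRCm38), from which positions were taken. FPKM depends on gene length and on what else fills a library. The table holds no counts, so read depth is unknown and no counting interval is given, and 57.5% of values are at a floor of 0.0001. Columns with the authors' own comparison (fold change, p and q) were not used.

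The authors used edgeR for their own comparison. As FPKM are not counts, log2(FPKM + 1) was fitted here with limma 3.58.1 (R 4.3.3, trend) over the 15150 genes that reached 0.5 FPKM in no fewer than 4 libraries, with Benjamini-Hochberg adjustment over all of them. The threshold was an unadjusted p under 0.05 and a fold of at least 1.5. Correlations and level orders used exact permutations (Python 3.11.15), and the scripts were tested on simulated data. P-values measure the spread between these mice. The genes and lists were chosen with earlier results of these data known. Named were the 10 receptors, in each transport list every gene past the threshold or otherwise the 2 with the smallest p, and for Tnpo1 and Kpnb1 the 5 genes of highest correlation, of which 1 is not reported here. Alternatives were another pseudocount, no filter, median ratio scaling, a 2-fold threshold, leaving out each mouse and a mouse number block. Figures were drawn with matplotlib 3.10.9. Protein sequences were not used here.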

Additional observations from a re-analysis of the deposited data

Results flagged for a closer look

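Of 52 values examined in groups of 4 mice, 5 had a highest or lowest mouse whose gap to its neighbour took a larger share of the range of the group than the critical value of Dixon's test, where chance gives about 2.6. Tnpo1 in vehicle mouse 5 (7.98 FPKM, the others 0.85 to 1.28) had a gap of 0.867 of the range. Ipo7 in rFGF4 mouse 5 (6.08 FPKM, the others 8.33 to 8.73) had 0.869. Outside the 10 receptors, Xpo7 in vehicle mouse 2 (1.76 FPKM, the others 2.48 to 2.59) had 0.879 and Gle1 in vehicle mouse 3 (4.53 FPKM, the others 5.45 to 5.62) had 0.853. The FPKM of all genes summed to 481321 in vehicle mouse 5 and to 541179 to 552604 in the other vehicle mice, a gap of 0.84 of the range.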

How the results depend on the processing

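Tnpo1 was the 1 receptor past the threshold with a pseudocount of 0.1, with no filter, after scaling, at a 2-fold threshold and without any mouse other than rFGF4 mouse 5, when Ipo7 joined it (2 receptors, range 1 to 2). With the mouse number as a replicate block the count was 0 (Tnpo1 difference 1.35). Same-numbered mice did not deviate together (correlations -0.229, -0.155 and -0.393 for numbers 2, 3 and 5). For these numbers no rFGF4 library was most like the vehicle library of its own number, and there was no vehicle mouse 1. The labels do not say what the numbers mean, so whether they pair the mice is not settled by these values. The receptors' median difference was 0.21 to 0.39 when a mouse was left out, 0.21 under the block, 0.17 scaled and 0.32 with a pseudocount of 0.1. Genes past the threshold numbered 231 and became 348 with a pseudocount of 0.1, 54 at a 2-fold threshold, 174 after scaling (93 higher and 81 lower, against 165 and 66), 262 under the block and 187 to 575 when a mouse was left out (575 without rFGF4 mouse 5, 432 without vehicle mouse 5). The 1 transport gene outside the receptors, Nutf2, became 3 without rFGF4 mouse 5 (Ipo4 and Rangap1 joined, range 1 to 3) and 0 under the block (0.68, limma unadjusted p = 0.0664). Pairs correlated within groups went from 11 to 3 after scaling, 8 with a pseudocount of 0.1, and 0 to 9 when a mouse was left out, where fewer arrangements are possible. Scaling turned Xpo1 from 0.10 to -0.01, neither of them past the threshold, and the median of all tested genes from 0.09 to -0.01, and the block turned that median to -0.02. The cause of these shifts was not tested, and without counts the precision of low values is unknown.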
